A study of Homo sapiens with 24 samples.

Results

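The genes described here encode splicing factors and proteins of the spliceosome, measured in HCT-116 cells, a human colorectal carcinoma line. They were chosen by name, as the non-control probes whose gene name begins with HNRNP, SFRS, SRSF, SNRP, SF3A or SF3B. The array carries 99 such probes for 62 genes among its 34127 probes. The genes fall into 20 heterogeneous nuclear ribonucleoproteins (hnRNPs), 12 SR proteins, 9 SR-related proteins that carry older SFRS names, 12 proteins of the small nuclear ribonucleoproteins (snRNPs) and 9 subunits of the SF3A and SF3B complexes. Of these, 94 probes for 60 genes were bright enough to be tested. SRSF12 was not well above background on any of the 24 arrays, and SNRPN reached that mark on 1 to 3 of the 6 arrays of each treatment, so neither was tested.

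The cells were a single clone with stably integrated vectors for the Tet repressor and for a Tet-inducible, FLAG-tagged dominant negative Tcf4 (DN-Tcf4), kept under zeocin and blasticidin selection. DN-Tcf4 lacks the part of Tcf4 that binds beta-catenin and represses Wnt target genes. Cells were mock-treated (Ctl), given 5 mM sodium butyrate (NaB), given 4 μg/ml doxycycline (Doxy), or given doxycycline together with butyrate (DoxyNaB). The study's methods place doxycycline first, followed by a step of 17.5 hr with or without butyrate. Butyrate is a short-chain fatty acid made by gut bacteria that inhibits histone deacetylases. The 24 arrays come from 6 experiments with all 4 treatments in each, and every group carries both integrated vectors. The comparisons ask how butyrate changed each gene without and with doxycycline, how doxycycline changed it without and with butyrate, and whether the butyrate response differed between cells with and without doxycycline.

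Pre-mRNA splicing is carried out by the spliceosome, which assembles anew on each intron from snRNPs and many other proteins. Each spliceosomal snRNP holds a small nuclear RNA, a ring of Sm proteins (of the related LSm proteins in U6) and proteins of its own, and the SF3A and SF3B complexes join the U2 snRNP at the branch site. SR proteins mostly bind exonic enhancers and favour the use of nearby splice sites, while hnRNPs coat the nascent RNA and often act against it, so that their balance shapes alternative splicing.

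Each probe is 60 bases long, and its signal reflects how much labelled cRNA it captured. Levels below are log2 values of the processed signal after division by the array's own 75th percentile over non-control spots, and a change is a difference of such levels. Levels of different probes cannot be compared. A gene was represented by its tested probe with the highest mean level. In the comparisons of butyrate, a call needed a fold above 2 together with an adjusted p (Benjamini-Hochberg, over the 18979 probes tested) below 0.01 in limma, fitted with the experiment as a block. In the other comparisons the adjusted p alone was used.

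The 75th percentile of an array lay between 380.2 and 1323 signal units, and between 52.7% and 88.1% of its spots were well above background. The share was 78.4% to 88.1% in experiments 2 to 4 and 52.7% to 62.6% in experiments 1, 5 and 6. The negative controls were brightest on the NaB array of experiment 3 and the DoxyNaB array of experiment 2. In experiments 2, 3 and 4 their mean signal was 114, 161 and 111 in NaB against 82, 68 and 64 in Ctl cells. It was 311, 70 and 130 in DoxyNaB against 78, 69 and 82 in Doxy cells. Background thus mostly went with butyrate in these experiments. In experiments 1, 5 and 6 it lay between 49.9 and 67.7 on every array. Experiment 1 had its butyrate arrays on one slide and its other arrays on another, and within it slide and butyrate cannot be told apart. All 7 markers of colon epithelium were well above background on all 24 arrays, against 0 of 4 leukocyte, 0 of 3 endothelial, 1 of 4 fibroblast, 1 of 3 muscle, 2 of 3 neuronal and 0 of 2 red cell markers. TCF7L2, which encodes Tcf4, was higher in DoxyNaB than in NaB cells by 4.46 (log2) with one probe and 2.96 with another, and lower by 1.25 with a probe in a different part of the gene. With the first of these probes it changed by 0.30 between Doxy and Ctl cells (adjusted p = 0.861). Bulk arrays cannot tell fewer cells of a kind from less RNA per cell.

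Some members share sequence, and the probes show how far a signal belongs to one gene. A pair of HNRNPA3 probes that the files place at the same site, chr2:177788575-177788634 (NCBI36, plus strand), is shown because the pair differs at 3 bases, in capitals. Counted from 1 at the 5′ end, from the upper to the lower probe, the differences are A14G, G42T and C59G.
HNRNPA3 upper: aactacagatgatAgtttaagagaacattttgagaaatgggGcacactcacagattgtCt
HNRNPA3 lower: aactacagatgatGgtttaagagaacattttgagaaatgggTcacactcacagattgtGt
The upper probe was well above background on 24 of 24 arrays and fell by 0.93 in NaB against Ctl cells. The lower probe was well above background on 16 arrays and was not tested.

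HNRNPA1L2 is a near-identical copy of HNRNPA1, so values of either gene are uncertain as to their source. The same holds for HNRNPCL1, a copy of HNRNPC, and for an HNRNPC probe that the files place at chr2:190497060-190497121 although the gene lies on chromosome 14. That probe fell by 0.74 in NaB against Ctl cells.

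Other probes report spliced RNA. The files place an HNRNPH3 probe over 335 bases of genome (chr10:69771036-69771370, NCBI36, plus strand) and the SNRPF probe over 4090 bases (chr12:94779201-94783290, NCBI36, plus strand), so each 60-base probe spans an intron. They are shown as examples of probes that match joined exons, with no capitals.
HNRNPH3: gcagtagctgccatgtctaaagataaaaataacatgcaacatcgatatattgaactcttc
SNRPF: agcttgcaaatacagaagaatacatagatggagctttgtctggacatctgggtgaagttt
Of the 94 tested probes, 12 are placed over 335 to 6443 bases in this way. In NaB against Ctl cells 5 of these 12 were called lower, with a median change of -0.77, and 23 of the other 82 were called lower, with a median of -0.76. Of all tested probes 11% were called lower.

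Butyrate lowered many of these genes. In NaB against Ctl cells 28 of 94 probes were called, all lower, where 11% of all tested probes were called lower. By gene, 22 of 60 were called lower and 0 higher, against 11.5% and 21% of all 15154 tested genes. In limma 3 genes were higher at an unadjusted p under 0.05, and the methods' t-test called 0 higher. The strongest falls were those of SRSF8 (3.63-fold), HNRNPH3 (3.44-fold) and HNRNPD (3.11-fold). The median change was -0.72 over the 60 genes and 0.17 over all tested probes.

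Without the fold threshold, 41 genes passed an adjusted p of 0.01 as lower, 2 as higher and 17 as neither, where 29% of all genes passed as lower and 40.6% as higher. The genes that passed as higher were AKAP17A and SF3B5. In 30 of the 60 genes every NaB level lay below every Ctl level, as in 20% of all genes. These 30 were 12 of 20 hnRNPs, 8 of 11 SR proteins, 3 of 9 SR-related proteins, 5 of 11 snRNP proteins and 2 of 9 SF3 subunits. The processing and the filter matter for such counts. Over all tested probes 31.7% were called in either direction and 11% lower. These shares were 16.2% and 8.55% with normexp background correction, and 26.6% and 11.4% with a filter on all 24 arrays. The share of all probes called higher thus depends on the setting. With each array scaled to its median after a floor of 5 signal units, the change of all probes moved by -0.75. In that setting 42 member genes were called lower, and so were 32.3% of all tested probes. The distance of the members' median from that of all probes was -0.89 there and in the setting used here, and -0.54 with quantile normalization.

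**Figure D1:**
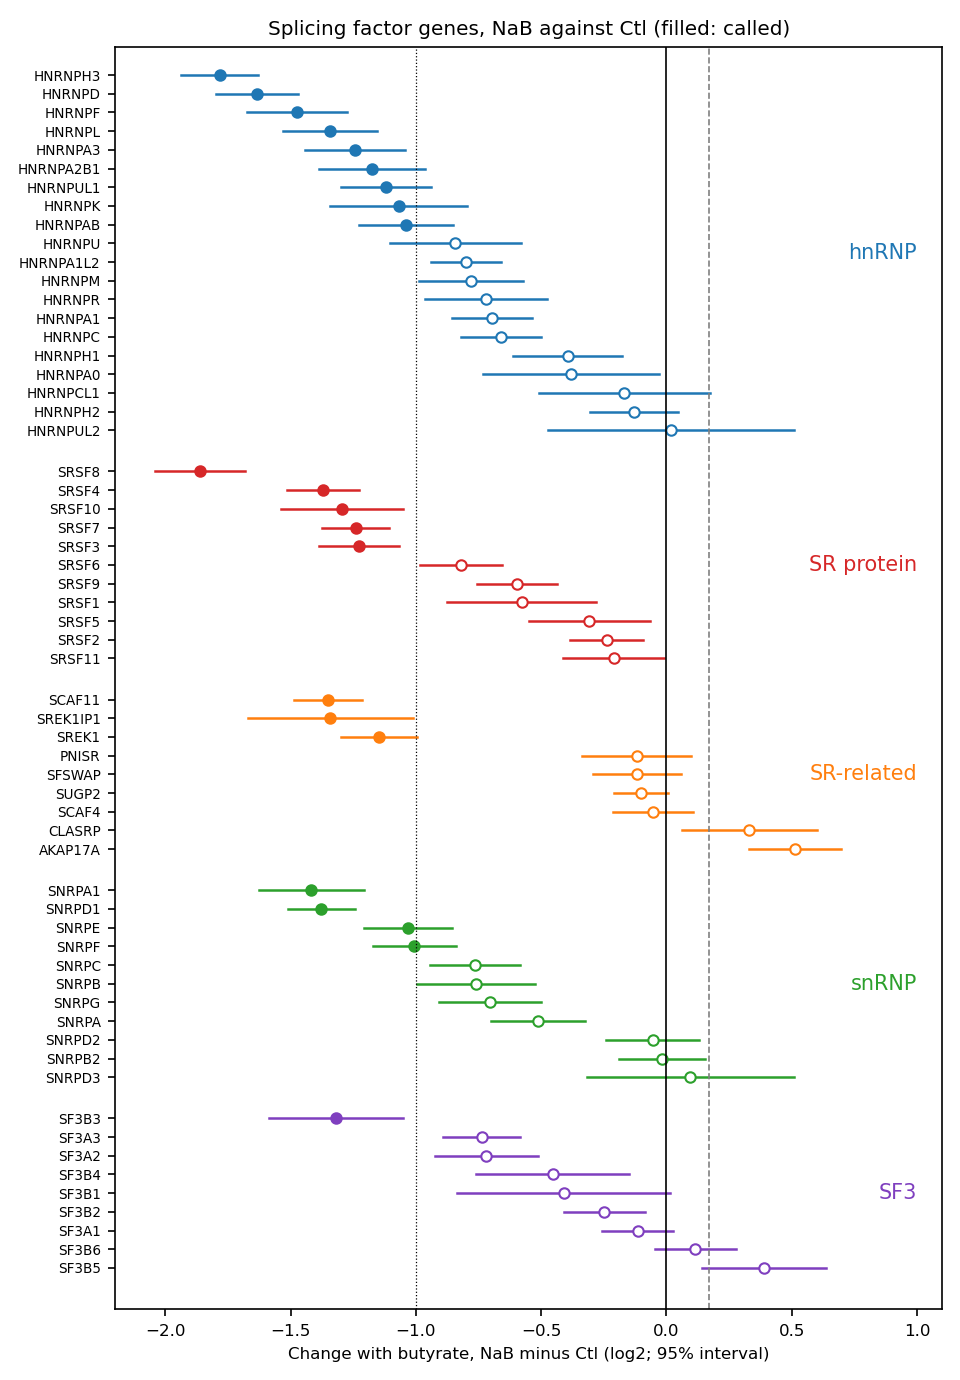
Change of each of the 60 tested genes in NaB against Ctl cells (log2, horizontal axis), by class; points are limma estimates over 6 experiments, bars their 95% intervals, and filled points were called (fold over 2, adjusted p under 0.01). The dotted line marks a fold of 2, the dashed line the median of all tested probes (0.17); 22 genes are filled, all to the left of the dotted line.

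The hnRNPs package nascent RNA and bind intronic and exonic silencers. Of the 20 tested, 9 (45%, against 11.5% of all genes) were called lower in NaB against Ctl cells. The adjusted p of 0.01 was passed as lower by 16 (against 29% of all genes), and the median was -0.82. HNRNPD (AUF1), which also binds AU-rich elements and directs mRNA decay, had levels of 5.07, 5.18 and 5.27 in Ctl cells (lowest, median and highest of 6 arrays) and of 3.37, 3.49 and 3.86 in NaB cells. In Doxy cells the levels were 5.01, 5.10 and 5.22, and in DoxyNaB cells they were 2.75, 3.12 and 3.24. The arrays with butyrate were all lower than those without, and those with both agents were lowest, below every array with butyrate alone. The probe lies at chr4:83494204-83494263 (NCBI36, minus strand). The change was -1.64 ± 0.077 (SE, adjusted p = 1.9e-12 from limma) in NaB against Ctl cells and -2.03 ± 0.077 (adjusted p = 1.1e-13) in DoxyNaB against Doxy cells. A second HNRNPD probe changed by -1.21 (adjusted p = 0.0073) in NaB against Ctl cells. With that probe the DoxyNaB levels, from -1.68 to 2.12, overlapped the NaB levels, from -1.37 to -0.39.

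HNRNPH3 belongs with HNRNPF, HNRNPH1 and HNRNPH2 to the hnRNPs that bind runs of G. Its levels were 1.89, 2.03 and 2.12 in Ctl cells and -0.10, 0.24 and 0.51 in NaB cells, with 1.89, 1.99 and 2.08 in Doxy cells and -0.22, 0.17 and 0.32 in DoxyNaB cells. No array with butyrate reached the lowest array without it. The change was -1.78 ± 0.072 (SE, adjusted p = 2.5e-13 from limma) in NaB against Ctl cells, and the probe that spans an intron, shown above, changed by -1.42 (adjusted p = 5e-11).

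The members of this family differed from one another in their change. HNRNPF had levels of 3.29, 3.66 and 3.80 in Ctl cells and 1.96, 2.15 and 2.34 in NaB cells, where 1 array was left out because its spot was marked as an outlier, and it fell by 1.48. HNRNPH1 fell by 0.39 (adjusted p = 0.0023), with 1 Ctl array left out for the same reason, and was called in neither comparison of butyrate. HNRNPH2 had levels of 1.68, 1.72 and 1.83 in Ctl cells and 1.44, 1.60 and 1.80 in NaB cells. These groups overlapped, and the change of -0.13 had a 95% interval from -0.30 to 0.05.

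The hnRNP A/B proteins bind exonic silencers. HNRNPA3 fell by 1.24, HNRNPA2B1 by 1.17 and HNRNPAB by 1.04, each in 6 of 6 experiments and each called. Only 1 of the 4 tested HNRNPA3 probes was called, and the smallest fall among them was -0.74. HNRNPA1 and its copy HNRNPA1L2 changed by -0.69 and -0.80, past the adjusted p of 0.01 but under the fold of 2. HNRNPA0 changed by -0.38 (adjusted p = 0.047).

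HNRNPL, which binds CA repeats, had levels of 4.30, 4.43 and 5.01 in Ctl cells and 2.98, 3.12 and 3.45 in NaB cells. These groups did not overlap, and the change was -1.34 ± 0.089 (SE, adjusted p = 1.8e-10). HNRNPK, which binds runs of C, fell by 1.07 in 6 of 6 experiments, but its Ctl levels ran from 2.54 to 3.91 and its NaB levels from 1.57 to 3.14, so that the groups overlapped. HNRNPUL1 fell by 1.12. HNRNPM, HNRNPR and HNRNPC changed by -0.78, -0.72 and -0.66, all past the adjusted p of 0.01 and under the fold of 2. HNRNPU, a nuclear scaffold protein, changed by -0.84 in NaB against Ctl cells and by -1.04 in DoxyNaB against Doxy cells, and only the latter was called. Of its 24 spots, 1 NaB, 1 Doxy and 2 DoxyNaB spots were left out as outliers.

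Among the hnRNPs the smallest changes in NaB against Ctl cells, besides that of HNRNPH2, were those of HNRNPUL2 (0.02, 95% interval -0.47 to 0.51) and HNRNPCL1 (-0.17, 95% interval -0.51 to 0.17). HNRNPUL2 ran from -3.50 to -1.54 in Ctl cells and from -3.56 to -1.23 in NaB cells, and it was well above background on 5 of 6 NaB arrays.

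**Figure D2:**
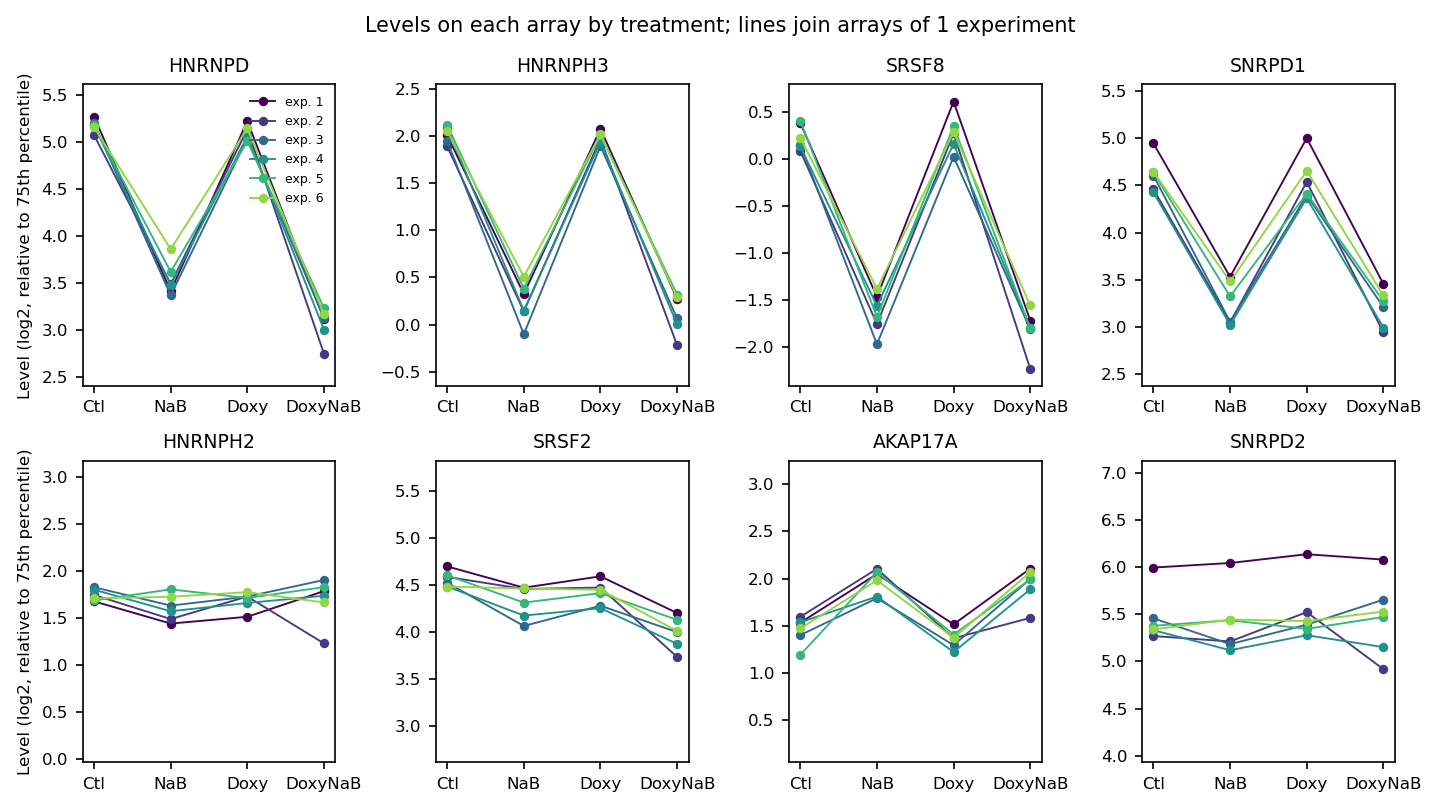
Level on each array (log2 relative to the array's 75th percentile, vertical axis, with the same span in every panel) for 8 genes over the 4 treatments; each line joins the arrays of 1 experiment. HNRNPD, HNRNPH3, SRSF8 and SNRPD1 dip in both treatments with butyrate, AKAP17A is higher in them (not so with scaling to the median), and HNRNPH2 and SNRPD2 overlap between treatments; SRSF2 is lowest in DoxyNaB cells.

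The SR proteins bind enhancers in exons through their RNA recognition motifs and recruit spliceosomal proteins through their arginine and serine repeats. Of the 11 tested, 5 (45.5%, against 11.5% of all genes) were called lower in NaB against Ctl cells. The adjusted p of 0.01 was passed as lower by 9 (against 29% of all genes), and the median was -0.82. SRSF8 (named SFRS2B in the files), a close relative of SRSF2, had levels of 0.09, 0.19 and 0.41 in Ctl cells and -1.97, -1.61 and -1.38 in NaB cells. In Doxy cells the levels were 0.03, 0.28 and 0.61, and in DoxyNaB cells -2.23, -1.79 and -1.55. All arrays with butyrate were below all arrays without it. The change was -1.86 ± 0.086 (SE, adjusted p = 1.3e-12) in NaB against Ctl cells and -2.10 ± 0.086 (adjusted p = 2.4e-13) in DoxyNaB against Doxy cells, from a probe at chr11:94443804-94443863 (NCBI36, plus strand).

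SRSF4 had levels of 3.42, 3.49 and 3.65 in Ctl cells and 1.99, 2.08 and 2.40 in NaB cells. SRSF7, whose domains include a zinc knuckle, had levels of 3.66, 3.74 and 3.87 in Ctl cells and 2.31, 2.52 and 2.65 in NaB cells. SRSF3, the smallest SR protein, had levels of 5.07, 5.19 and 5.32 in Ctl cells and 3.66, 3.87 and 4.33 in NaB cells. None of these 3 genes overlapped between the groups, and they fell by 1.37, 1.24 and 1.23 in 6 of 6 experiments. SRSF10, a repressor of splicing in its dephosphorylated form, fell by 1.29 in all 5 experiments measured, since 1 Ctl array was left out for an outlier spot.

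SRSF6, SRSF9 and SRSF1 changed by -0.82, -0.60 and -0.58, all past the adjusted p of 0.01 and under the fold of 2. SRSF2 (SC35), among the first SR proteins described, changed little. Its levels were 4.49, 4.56 and 4.70 in Ctl cells and 4.07, 4.39 and 4.47 in NaB cells, a change of -0.24 ± 0.069 (SE, adjusted p = 0.0044) that was lower in 6 of 6 experiments. The groups came close to each other without overlapping. SRSF5 changed by -0.31 (adjusted p = 0.022) and SRSF11 by -0.21 (adjusted p = 0.054).

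The SR-related genes are a mixed group and split in their values, with 3 of 9 called lower (33.3%, against 11.5% of all genes). SCAF11 and SREK1, which take part in splice site pairing, and SREK1IP1, which binds SREK1, were called lower at -1.35, -1.15 and -1.34. SCAF11 ran from 1.00 to 1.19 in Ctl cells and from -0.44 to -0.06 in NaB cells, with no overlap. The other 6 genes lay between -0.12 and 0.51. Of these, SFSWAP, SUGP2 and SCAF4 changed by -0.12, -0.10 and -0.05, with intervals that reached no further than -0.29 and 0.11. A second SUGP2 probe changed by 0.40 and was not called. PNISR changed by -0.12 (adjusted p = 0.304) and CLASRP, which interacts with a CLK kinase, by 0.33 (adjusted p = 0.0263).

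AKAP17A, which anchors protein kinase A at splicing speckles, was the member with the largest rise. Its levels were 1.19, 1.5 and 1.59 in Ctl cells and 1.79, 2.01 and 2.10 in NaB cells, so that all NaB arrays were above all Ctl arrays. The change was 0.51 ± 0.088 (SE, adjusted p = 3.8e-05), higher in 6 of 6 experiments, but it was -0.24 (adjusted p = 0.38) with that floor and scaling to the median, where the median of all probes fell by 0.75. Relative to all probes it was 0.34 in both settings.

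The Sm proteins form the ring around the small nuclear RNA, and U1- and U2-specific proteins join it. Of the 11 snRNP proteins tested, 4 (36.4%, against 11.5% of all genes) were called lower in NaB against Ctl cells. The adjusted p of 0.01 was passed as lower by 8 (against 29% of all genes), and the median was -0.76. SNRPD1 (Sm D1) had levels of 4.43, 4.62 and 4.95 in Ctl cells and 3.02, 3.19 and 3.53 in NaB cells. In Doxy cells they were 4.36, 4.48 and 5.00, and in DoxyNaB cells 2.94, 3.24 and 3.46. The arrays with and without butyrate were well apart, and the change was -1.38 ± 0.064 (SE, adjusted p = 1.3e-12), or 2.60-fold lower. A second probe of the gene changed by -1.35.

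Its partner in the Sm ring SNRPD2 (Sm D2) did not move with butyrate beyond its spread. Its levels were 5.27, 5.36 and 6.00 in Ctl cells, 5.12, 5.32 and 6.05 in NaB cells, 5.28, 5.41 and 6.14 in Doxy cells and 4.92, 5.50 and 6.08 in DoxyNaB cells. All 4 treatments overlapped. The change in NaB against Ctl cells was -0.06 with a 95% interval from -0.24 to 0.13, lower in 3 of 6 experiments. The intervals of SNRPD1 and SNRPD2 do not meet.

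SNRPE and SNRPF, further Sm proteins, fell by 1.03 and 1.01, and were close to the fold threshold. SNRPE had levels of 4.03, 4.17 and 4.89 in Ctl cells and 3.01, 3.14 and 3.84 in NaB cells. It has 4 tested probes, which changed by -1.03, -0.89, -0.62 and 0.53, and the last of these did not pass the test (adjusted p = 0.096). The gene has near-identical copies, so its value is uncertain. SNRPB changed by -0.76 and SNRPG by -0.70, both past the adjusted p of 0.01, and SNRPD3 by 0.10 (95% interval -0.32 to 0.51), with 3 spots left out as outliers.

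Of the proteins particular to 1 snRNP, SNRPA1 (U2-A′) had levels of 2.46, 2.64 and 2.84 in Ctl cells and 0.91, 1.26 and 1.42 in NaB cells. The groups lay far apart, with a change of -1.42 ± 0.099 (SE, adjusted p = 7.9e-10). SNRPB2 (U2-B″), which binds the U2 RNA together with SNRPA1, changed by -0.02 (95% interval -0.19 to 0.15). The U1 proteins SNRPC and SNRPA changed by -0.76 and -0.51, both past the adjusted p of 0.01.

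With the scaling used here, the SF3A and SF3B subunits had a median change nearer to 0 than the hnRNPs, SR proteins and snRNP proteins. With quantile normalization their median was close to that of the snRNP proteins. In NaB against Ctl cells 1 of 9 (11.1%) was called lower, near the 11.5% of all genes. The adjusted p of 0.01 was passed as lower by 5 and as higher by 1, against 29% and 40.6% of all genes. The median was -0.41. SF3B3 had levels of 0.87, 1.10 and 1.54 in Ctl cells and -0.42, -0.15 and 0.12 in NaB cells. These groups did not overlap, and the change was -1.32 ± 0.127 (SE, adjusted p = 2.9e-08). A second SF3B3 probe changed by -0.83 and was not called. SF3A3 and SF3A2 changed by -0.74 and -0.72, SF3B4 by -0.45 and SF3B2 by -0.25, all past the adjusted p of 0.01 and under the fold of 2. SF3B1, which contacts the branch site, changed by -0.41 (adjusted p = 0.074), and its Ctl levels ran from -2.36 to -0.39. SF3A1 changed by -0.12 and SF3B6 by 0.12, with intervals that include 0. SF3B5 changed by 0.39 (adjusted p = 0.0062), and by -0.36 (adjusted p = 0.19) with the floor and scaling to the median, which is 0.22 relative to all probes in both settings. SF3B5 did not pass the adjusted p of 0.01 with no replicate block (adjusted p = 0.0999) or without experiment 1, 4, 5 or 6 (adjusted p of 0.0147 to 0.0368).

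The classes were compared through the median change of each class in each experiment, which is a description of 6 experiments without a test. In NaB against Ctl cells the median of the hnRNPs was -0.84 ± 0.16 (SD, n = 6 experiments), that of the SR proteins -0.82 ± 0.13 and that of the snRNP proteins -0.74 ± 0.16. The hnRNPs lay below the SR proteins in 3 of 6 experiments, with a mean difference of -0.02 ± 0.09 (SD), and below the snRNP proteins in 5 of 6 (-0.09 ± 0.072). The 3 classes thus overlapped with the scaling used here. With quantile normalization the SR proteins lay lower and the snRNP proteins nearer to 0, as given in the last section. The SF3 subunits stood at -0.32 ± 0.11 and the SR-related genes at -0.16 ± 0.076. The hnRNPs lay below the SF3 subunits in 6 of 6 experiments by 0.52 (SD 0.16), and the SR proteins lay below the SR-related genes in 6 of 6 by 0.66 (SD 0.17).

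**Figure D3:**
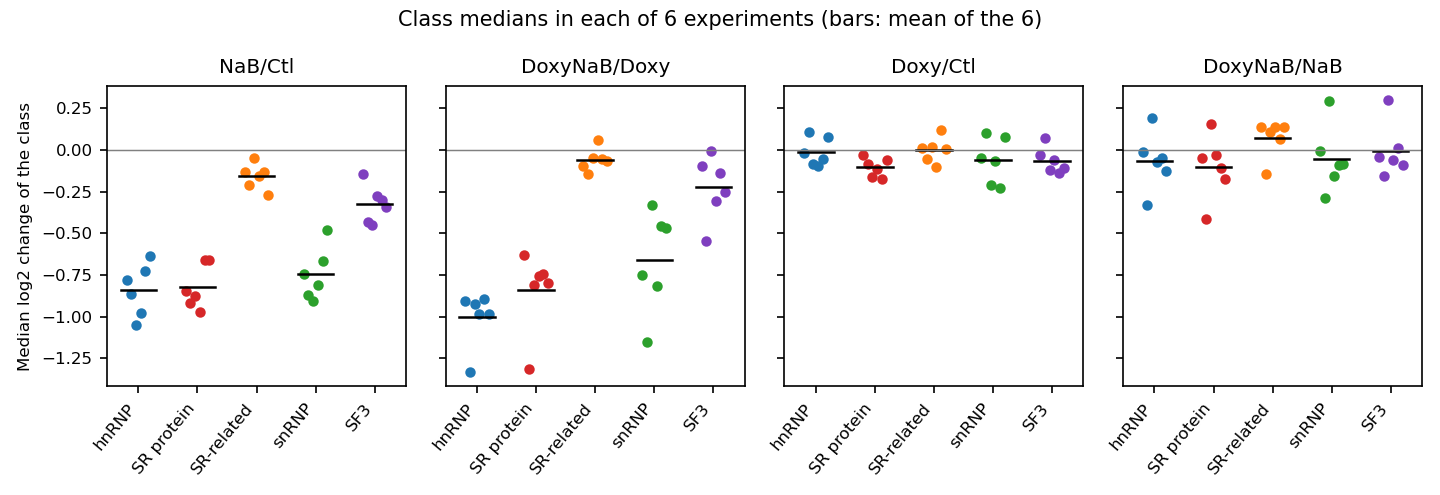
Median log2 change of each class (vertical axis) in each of 6 experiments (points, in order of experiment number) for 4 comparisons; horizontal bars are means of the 6 values. In both comparisons of butyrate the hnRNPs, SR proteins and snRNP proteins lie below the SR-related genes, and in both comparisons of doxycycline the classes lie around 0.

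The change with butyrate was also measured in the presence of doxycycline, in DoxyNaB against Doxy cells. There 31 of 94 probes were called, all lower, against 12.3% of all tested probes. By gene 20 of 60 were called lower, against 12.5% of all genes, and 0 higher, against 18.7%. In limma 2 genes were higher at an unadjusted p under 0.05, and the methods' t-test called 0 higher. Without the fold threshold 42 passed as lower, against 30.3% of all genes, and 1 as higher, AKAP17A at 0.58, against 38.1%. That value was 0.39 (adjusted p = 0.0341) with normexp and 0.02 (adjusted p = 0.954) with the floor and scaling to the median, and did not pass in either. In 34 of the 60 genes every DoxyNaB level lay below every Doxy level, as in 20.9% of all genes. The median change was -0.72 over the 60 genes and 0.10 over all tested probes.

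Called lower in both comparisons were 19 genes, which is 86.4% of the 22 called in NaB against Ctl cells and 95% of the 20 called in DoxyNaB against Doxy cells. The same overlap over all tested genes was not counted, so whether these shares are particular to the members is not known. SNRPE, SNRPF and SRSF10 were called in NaB against Ctl cells alone, and HNRNPU in DoxyNaB against Doxy cells alone. Their changes in the comparison that missed the call were -0.99, -0.93, -0.92 and -0.84, each past the adjusted p of 0.01. In DoxyNaB against Doxy cells the hnRNPs had a median of -1.0 ± 0.17 over the 6 experiments, the SR proteins of -0.84 ± 0.24 and the snRNP proteins of -0.66 ± 0.30. Here the hnRNPs lay below the SR proteins in 6 of 6 experiments, by 0.16 (SD 0.088), and below the snRNP proteins in 6 of 6, by 0.34 (SD 0.20). With normexp the SR median over genes was -1.0. The hnRNP median ran from -1.10 to -0.93 over all settings except scaling to the median. The order of hnRNPs and SR proteins was therefore not shown to hold with normexp.

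**Figure D4:**
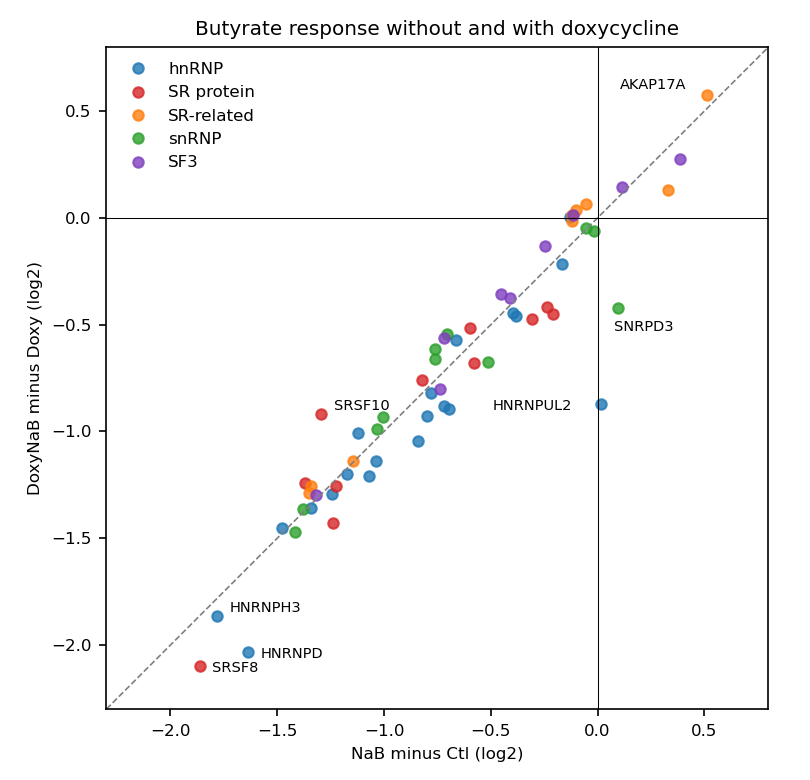
Change in NaB against Ctl cells (horizontal axis) and in DoxyNaB against Doxy cells (vertical axis) for the 60 tested genes, both in log2 and coloured by class; the dashed line marks equal changes. Most genes lie near the line; HNRNPUL2 (0.02 and -0.87) lies furthest below it.

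Doxycycline alone gave small differences in these genes. In Doxy against Ctl cells limma called 0 of the 94 probes, against 0.501% of all tested probes in either direction. At an unadjusted p under 0.05 there were 5 lower probes and 2 higher, and the methods' t-test gave 3 lower and 2 higher before adjustment and 0 after it. The class medians lay between -0.07 and 0.02. The lowest adjusted p was that of HNRNPUL2, with levels from -3.50 to -1.54 in Ctl cells and from -2.14 to -0.76 in Doxy cells. It was higher in 6 of 6 experiments, by 0.81 (95% interval 0.32 to 1.31, adjusted p = 0.107), and the groups overlapped. SF3A2, SRSF2 and SRSF4 changed by -0.22, -0.15 and -0.15, with adjusted p from 0.337 to 0.362.

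When butyrate was present, few of these genes differed with doxycycline. In DoxyNaB against NaB cells 3 of 94 probes were called lower, against 1.87% of all tested probes, which is 2 of 60 genes against 2.03% of all genes, a share near that of all genes. HNRNPD fell by 0.47 ± 0.077 (SE, adjusted p = 9.2e-04) in 6 of 6 experiments, or 1.39-fold, and its DoxyNaB levels all lay below its NaB levels. Its second probe was not called, with mean levels of -0.79 in NaB and -0.72 in DoxyNaB cells. The medians of that probe were -0.68 and -1.16, and its DoxyNaB array of experiment 2 stood at 2.12. SRSF2 had levels of 4.07, 4.39 and 4.47 in NaB cells and 3.74, 4.01 and 4.20 in DoxyNaB cells. These groups overlapped, and the change was -0.33 (adjusted p = 0.0068) and -0.34 (adjusted p = 0.0017) with its 2 probes, lower in 6 of 6 experiments with the first. Neither call held in every setting: 0 probes were called with normexp background correction, and 0 without experiment 4. SRSF7 changed by -0.26 (adjusted p = 0.023), SCAF4 by 0.21 and SF3A1 by 0.17, and none of these passed.

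The difference between the butyrate responses, tested as an interaction, was called for 0 of 94 probes, against 1.24% of all tested probes. At an unadjusted p under 0.05 limma gave 4 probes, and the methods' t-test gave 1 before adjustment and 0 after it. HNRNPD had the lowest adjusted p, 0.0749, with a response that was stronger with doxycycline by 0.40 (95% interval 0.17 to 0.63) and stronger in 6 of 6 experiments. The mean fall of its second probe was not stronger with doxycycline. Mean levels of that probe were 0.42 in Ctl, -0.79 in NaB, 0.32 in Doxy and -0.72 in DoxyNaB cells. As the response without doxycycline minus that with it, HNRNPUL2 differed by 0.89 (adjusted p = 0.24) and SRSF10, over 5 experiments, by -0.38 (adjusted p = 0.35). These differences did not pass the test, and their intervals leave room for sizeable ones.

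Genes with several tested probes allow a check within the gene. There were 22 of them, and the changes of their probes in NaB against Ctl cells spanned less than 0.5 in 16 and had 1 sign in 19. All probes were called in 5 genes, some in 7 and none in 10. The 7 genes were HNRNPA3 and SNRPE (1 of 4 probes called), SRSF10 (2 of 4), and HNRNPK, SRSF7, SF3B3 and SREK1IP1 (1 of 2). In the last 4 the probe not called changed by -0.90, -0.85, -0.83 and -0.83. No gene had called probes in opposite directions. The widest span was that of SNRPE, 1.56, and the next that of SRSF10, 0.77.

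Other genes of splicing and mRNA export were listed by complex, 184 genes of which 173 were tested. In NaB against Ctl cells 39 (22.5%) were called lower and 8 higher, against 11.5% and 21% of all genes, with a median of -0.46, and 102 passed the adjusted p of 0.01 as lower, against 29%. The 8 include RBFOX3, whose probe passed the filter only through arrays with butyrate, as given below. The counts of the lists that follow stand against the same 11.5% lower and 21% higher. Of 19 genes of splice site recognition and the U1, U2, U11 and U12 snRNPs, 3 (15.8%) were called lower, near the share of all genes, and 1 higher. U2AF2, the large subunit of the factor that binds the polypyrimidine tract, fell by 1.77, and PHF5A, which sits in the SF3B complex, by 1.69. LUC7L2, a U1-associated protein, fell by 1.28, and ZMAT5, a protein of the U11/U12 snRNP, rose by 1.68.

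Among 24 proteins of the U4/U6.U5 tri-snRNP and the LSM ring 7 (29.2%) were called lower and 0 higher, with 2 past the adjusted p of 0.01 as higher. LSM7 fell by 1.45, SNRNP40 by 1.38 and LSM5 by 1.27. Of 38 Prp19 complex proteins, second-step factors and helicases 3 (7.89%) were called lower, under the share of all genes. They were DDX39B (-1.16), DHX35 (-1.13) and ISY1 (-1.03), while PRPF18, a second-step factor, rose by 1.15. Of 20 genes of the exon junction complex and mRNA export 7 (35%) were called lower and 2 higher. ALYREF, the export adaptor, had levels from 4.69 to 5.03 in Ctl cells and from 2.60 to 3.04 in NaB cells, with a change of -1.99, while NXF1, the export receptor to which it hands mRNA, rose by 1.05. THOC7 and MAGOHB fell by 1.78 and 1.41, and SAP18 rose by 1.30.

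Regulators of alternative splicing outside the name rule were called lower in 15 of 47 genes (31.9%, against 11.5% of all genes) and higher in 2 (against 21%), with a median of -0.69. HNRNPDL, a relative of HNRNPD, fell by 1.70, RBMX by 1.48 and MBNL1 by 1.41. The 2 counted as higher were NOVA2 and RBFOX3, whose proteins are known from neurons. RBFOX3 entered this count only through the arrays with butyrate, so its call is no support for a rise. NOVA2 had levels from -3.62 to -3.32 in Ctl cells and from -1.07 to -0.67 in NaB cells, and rose by 2.63. RBFOX3 (NeuN) was not well above background on any Ctl or Doxy array, so its probe was tested only because of the arrays with butyrate, and its values are a description. It was at least 4.58-fold higher in NaB than in Ctl cells and at least 5.04-fold higher in DoxyNaB than in Doxy cells, where 5 of 6 DoxyNaB arrays measured it. These are lower bounds, the treated mean against, on each control array, the higher of the lowest signal well above background and the probe's own. The neuronal markers SYT1 and SNAP25 were well above background on all 24 arrays, and their part in these rises was not tested. Of 16 genes of snRNP assembly and import 4 (25%, against 11.5% of all genes) were called lower and 1 (against 21%) higher. WDR77, a partner of the methylase of Sm proteins, fell by 1.90, COIL (coilin) by 1.62 and GEMIN4 by 1.40, and GEMIN8 rose by 1.25. Of 9 genes of SR protein kinases and transport 0 were called lower in limma and CLK3 was called higher at 1.05, with a list median of 0.17.

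**Figure D5:**
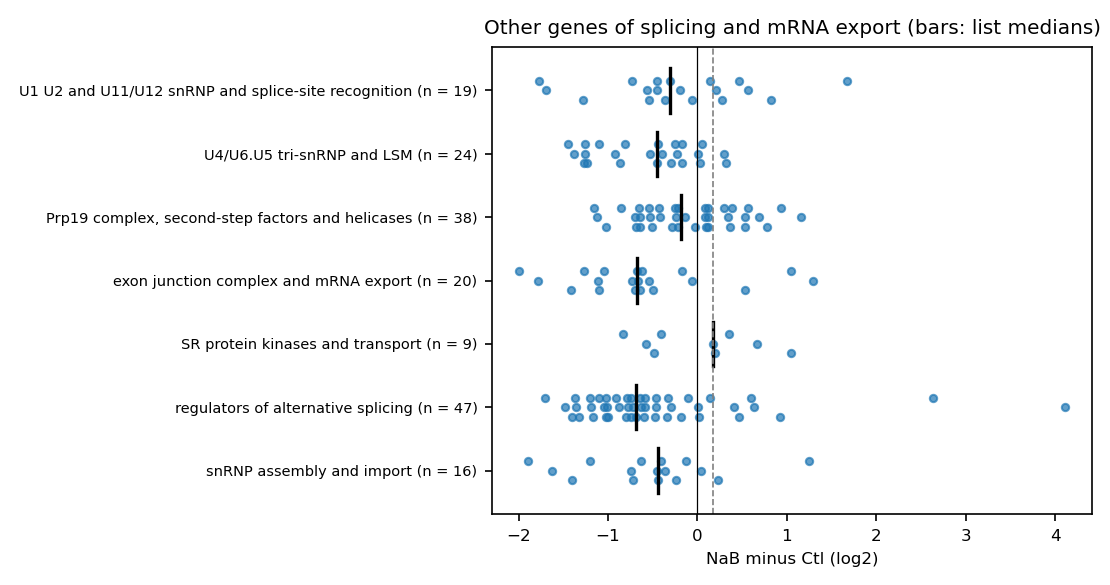
Change of each tested gene of 7 other lists of splicing and mRNA export in NaB against Ctl cells (log2, horizontal axis); points are genes, black bars list medians, and the dashed line is the median of all tested probes (0.17). The medians run from -0.69 for regulators of alternative splicing to 0.17 for SR protein kinases; the point furthest to the right is RBFOX3, whose fitted change is no bound.

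Promoters from RefSeq (GRCh38.p14), taken as the 250 bases before the most upstream start of a gene, were found for 56 of the 62 genes and searched on both strands for 8 motifs. The core of the ETS motif, CCGGAAG, was present in 22 of 56 (39.3%), against 8.78% of 27305 genes. Its share was 30% of the 20 genes called lower in NaB against Ctl cells and 47.1% of the 34 tested and not called. The sequence CCAAT was present in 37.5% of the 56 and 33% of all genes, in 11 of the 20 called lower (55%) and in 10 of the 34 not called (29.4%). The GC box GGGCGG was present in 55.4% of the 56, against 42.2% of all genes. The Tcf motif CTTTGATC was present in 1 of 56, SRSF8, and in 0.56% of all genes. A match is a description of these letters and not of a bound site, and splicing genes are not a sample like the table of all genes.

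A few promoters are shown to set genes that fell beside genes that did not, with matches on either strand to the ETS core, the CCAAT box, the GC box, the TATA box, the E-box and the Tcf motif in capitals. HNRNPD (chr4:82373992-82374241, minus strand), HNRNPH3 (chr10:68331443-68331692, plus strand), SRSF8 (chr11:95066627-95066876, plus strand) and SNRPF (chr12:95858702-95858951, plus strand) were called lower in NaB against Ctl cells.
HNRNPD: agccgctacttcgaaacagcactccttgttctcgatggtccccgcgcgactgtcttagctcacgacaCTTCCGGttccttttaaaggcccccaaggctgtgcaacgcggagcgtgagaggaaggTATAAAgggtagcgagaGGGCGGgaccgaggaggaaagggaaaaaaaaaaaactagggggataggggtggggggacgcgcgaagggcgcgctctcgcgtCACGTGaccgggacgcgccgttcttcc
HNRNPH3: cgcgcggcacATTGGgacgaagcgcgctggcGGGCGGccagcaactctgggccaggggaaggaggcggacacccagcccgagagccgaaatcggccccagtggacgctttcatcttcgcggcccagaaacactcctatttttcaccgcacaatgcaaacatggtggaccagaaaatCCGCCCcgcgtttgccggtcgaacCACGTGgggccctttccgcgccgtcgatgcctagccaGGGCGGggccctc
SRSF8: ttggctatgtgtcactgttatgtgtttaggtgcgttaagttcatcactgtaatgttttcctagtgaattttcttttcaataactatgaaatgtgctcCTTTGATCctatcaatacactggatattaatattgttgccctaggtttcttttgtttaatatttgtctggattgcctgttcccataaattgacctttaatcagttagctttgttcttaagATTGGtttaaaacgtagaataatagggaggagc
SNRPF: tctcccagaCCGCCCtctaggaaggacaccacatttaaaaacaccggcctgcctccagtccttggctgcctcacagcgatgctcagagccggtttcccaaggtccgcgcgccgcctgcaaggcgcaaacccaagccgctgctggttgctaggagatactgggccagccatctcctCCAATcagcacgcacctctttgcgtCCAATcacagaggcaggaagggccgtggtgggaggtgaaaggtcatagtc
HNRNPH2 (chrX:101407972-101408221, plus strand) and SNRPD2 (chr19:45692317-45692566, minus strand) were not.
HNRNPH2: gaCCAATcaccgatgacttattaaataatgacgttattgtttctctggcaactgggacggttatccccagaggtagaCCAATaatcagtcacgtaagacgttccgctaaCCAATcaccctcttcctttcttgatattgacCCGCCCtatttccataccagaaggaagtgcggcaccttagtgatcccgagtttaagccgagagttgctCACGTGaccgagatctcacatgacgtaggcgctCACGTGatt
SNRPD2: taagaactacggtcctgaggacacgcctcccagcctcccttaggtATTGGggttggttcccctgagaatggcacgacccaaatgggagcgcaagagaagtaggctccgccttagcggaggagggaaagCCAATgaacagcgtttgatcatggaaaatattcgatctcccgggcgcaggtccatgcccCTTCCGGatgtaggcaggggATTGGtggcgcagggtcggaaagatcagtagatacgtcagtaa
The HNRNPD promoter holds an ETS core 183 bases before the start, a TATA box (TATAAA) at 126, a GC box at 109 and an E-box (CACGTG) at 27. The SRSF8 promoter holds the Tcf motif at 153 and a CCAAT match at 33. CCAAT was present on either side of the comparison, once in HNRNPH3, at 75 and 50 bases before the start in SNRPF, and at 3 positions in each of HNRNPH2 and SNRPD2.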

How the data were processed

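The cells, treatments and 24 arrays (1 colour, Agilent 4x44K) are described above. The authors deposited the intensities of each spot as written by Agilent Feature Extraction (version 9.5.3.1 per the file headers), with background and spatial trend removed within an array and no scaling between arrays; the study's methods name a paired test in GeneSpring. Control spots and spots marked as outliers were left out, spots of a replicated probe were averaged, and log2 of the processed signal was taken relative to the array's 75th percentile. A probe was tested when well above background, by the software's own test, on all 6 arrays of at least 1 treatment. Genes were named through the accessions in the files for 96 of the 99 probes. Coordinates are those of the files, on NCBI36.

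The 4 treatments were fitted with limma 3.58.1 in R 4.3.3 (lmFit, eBayes) with the experiment as a block; the fit was tested on simulated data. The pairing follows the methods. After each treatment's mean was taken off, arrays of 1 experiment correlated with r over 0.1 in 35 of 36 pairs (median 0.60, lowest -0.22). Pairs from different experiments were not set beside these, so the values cannot tell pairing by experiment from a shared scan. Alternatives covered background correction, scaling, filter, block, slide, samples, test, thresholds, probes per gene and leaving out experiments. Tables were made with pandas 2.3.3 and numpy 2.4.6, and plots with matplotlib 3.10.9, in Python 3.11.15.

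The members, classes and lists were chosen with earlier results of these data known. Genes were named by rule: in each class the 4 largest called falls and rises in NaB against Ctl cells that held in every experiment and the 3 smallest changes, the smallest p in the other comparisons, and 3 falls and 3 rises in each other list. The remaining members were named after their values were seen, to account for every gene. The study's methods call the 6 experiments biological replicates of 1 clone, and the number of arrays limits the precision.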

Additional observations from a re-analysis of the deposited data

Results flagged for a closer look

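In 22 of 140 treatment groups of the 35 genes tested for it, 1 of 6 arrays stood apart from the others by Dixon's test, where chance flags about 1 in 20 groups, or 7. Of these arrays 19 were of experiment 1, 2 of experiment 2 and 1 of experiment 3. All values are levels (log2 relative to the array's 75th percentile).

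In experiment 1 the array was the highest of its group for HNRNPL (5.01 in Ctl and 4.95 in Doxy cells), SNRPE (4.89 in Ctl, 3.84 in NaB and 4.82 in Doxy cells), SNRPF (4.79 in Doxy cells) and SNRPD2 (6.00 in Ctl, 6.05 in NaB and 6.14 in Doxy cells). It was also highest for SF3A2 (2.85 in Ctl and 2.86 in Doxy cells), SF3B2 (4.03 in Ctl cells), SUGP2 (1.13 in NaB and 1.33 in DoxyNaB cells), SFSWAP (1.91 in NaB cells) and SCAF4 (-0.31 in Doxy cells). It was the lowest for HNRNPF (3.1 in Doxy cells), SCAF11 (0.89 in Doxy cells) and SREK1IP1 (-2.28 in Doxy cells). In experiment 2, SREK1IP1 stood high in NaB cells (-2.78) and HNRNPH2 low in DoxyNaB cells (1.23). In experiment 3, HNRNPUL2 stood high in Doxy cells (-0.76). The fit takes out what the arrays of an experiment share.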

How the results depend on the processing

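No class median that was larger than its SD over the experiments changed sign. The SR-related median in DoxyNaB against Doxy cells, 0.01, was within its SD and ran from -0.55 to 0.04 over the settings. Counts of calls have no sign, and were only asked whether they changed by over 1.5 times. The rises of AKAP17A and SF3B5 in NaB against Ctl cells turned to -0.24 and -0.36 with arrays scaled to their median after a floor of 5 signal units, called scaling to the median below. The 28 probes called in NaB against Ctl cells became 71 with that setting, 58 at a fold of 1.5 and 69, 67 of them lower, with no fold threshold. Over all tested probes the shares called lower were 11%, 32.3%, 20% and 28.2% in the same order. The 31 probes called in DoxyNaB against Doxy cells became 70, 58 and 70, and 20 with 1 probe per gene. Leaving out each experiment gave 24 to 28 and 30 to 33, and 0 to 0 in Doxy against Ctl cells and in the interaction. The methods' t-test, unadjusted, gave 5 in Doxy against Ctl cells and 1 in the interaction, where quantile normalization also gave 1. The 3 probes called in DoxyNaB against NaB cells became 1 with no replicate block, which changed no other count by over 1.5 times, 1 with no filter, and 0 with normexp, with scaling to the median, with only the arrays compared, and by the adjusted t-test. Leaving out each experiment gave 0 to 3, with 0 without experiment 4 and 1 without experiment 5 or 6.

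The class medians in NaB against Ctl cells moved with scaling to the median to -1.59 (hnRNP), -1.57 (SR), -0.87 (SR-related), -1.51 (snRNP) and -1.16 (SF3), and with quantile normalization to -1.03 (SR), -0.24 (SR-related), -0.58 (snRNP) and -0.54 (SF3). The SR median was -1.02 with a filter on all 24 arrays. In DoxyNaB against Doxy cells scaling to the median gave -1.53, -1.32, -0.55, -1.22 and -0.92, and normexp -1.0 (SR) and -0.18 (SR-related). Leaving out each experiment left the medians in NaB against Ctl cells at -0.85 to -0.78 (hnRNP), -0.85 to -0.79 (SR), -0.17 to -0.09 (SR-related), -0.78 to -0.72 (snRNP) and -0.45 to -0.30 (SF3), and in DoxyNaB against Doxy cells at -1.02 to -0.96, -0.80 to -0.67, -0.03 to 0.04, -0.73 to -0.57 and -0.38 to -0.20. The causes were not tested.

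Fits on single scans were chosen after seeing the data. Experiments 2 to 4 alone gave a hnRNP median of -0.99, experiments 5 and 6 alone gave -0.66 (SR) and -0.57 (snRNP), and each gave 0 calls in DoxyNaB against NaB cells. For single named genes 350 of 398 values kept their call. Beside both reversals, 46 lost it: SNRPE (5), SNRPF (7), SF3B5 (9), AKAP17A (1 in NaB against Ctl and 3 in DoxyNaB against Doxy cells), HNRNPD in DoxyNaB against NaB cells (7) and SRSF2 there (14). Members near the background, such as HNRNPUL2 and HNRNPCL1, have wide intervals.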
